A study of Mus musculus with 24 samples.

Results

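The MTOR inhibitor torin1 was compared with MK-8722, which activates AMP-activated protein kinase (AMPK), in mouse embryonic fibroblasts (MEFs) labelled as AMPK knockout (AMPK KO). MEFs are connective tissue cells cultured from mouse embryos. According to the study, the AMPK KO cells lack both catalytic subunits of the kinase, Prkaa1 and Prkaa2, in the controls as in the treated cells. The comparison was chosen by genotype and treatment labels and took 8 of the 24 poly(A) RNA libraries of the series, 4 from AMPK KO cells given torin1 and 4 from AMPK KO cells given MK-8722, with 1 library of each of passages 16, 17, 18 and 19 on either side. Both sides shared the genotype, the batch label and the passage range, and differed in the drug. No dose or duration is given in the labels. The wild-type (WT) libraries of the same treatments, 4 per drug at passages 12 to 15, served to test whether the contrast differed between genotypes, and the 4 AMPK KO libraries given the vehicle DMSO are quoted as background levels.

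MTORC1, the complex through which MTOR senses amino acids and growth factors, keeps the transcription factors TFEB and TFE3 out of the nucleus, and its inhibition lets them reach lysosomal and autophagy genes whose promoters carry the CLEAR motif. The same complex maintains ATF4, which drives amino acid uptake, amino acid synthesis and tRNA charging, and SREBP, which drives sterol and fatty acid synthesis. AMPK is an energy sensor that, when active, also restrains MTORC1. MK-8722 is known to act through AMPK, and torin1 acts on MTOR itself.

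Torin1 and MK-8722 libraries differed at many genes. Of 15828 genes with enough counts to test, 7202 (45.5%) passed the call, an edgeR adjusted p under 0.05 with a fold change of at least 1.2. Of these, 4236 (26.8% of genes tested) were higher with torin1 and 2966 (18.7%) were lower. Thus 58.8% of called genes were higher, a share of 69.5% with scaling by library size alone and of 45.6% once a trend with GC content and length was removed from each library. At a change of at least 4-fold, 106 called genes were higher and 73 lower. Levels are in CPM, which puts the counts of all libraries on 1 depth after TMM scaling. The CPM of the 4 torin1 and the 4 MK-8722 libraries did not overlap for 8594 genes (54.3%). The first principal component of the 8 libraries took 60.3% of their variance, with all torin1 libraries under 0 and all MK-8722 libraries above it. Each fold change below is torin1 over MK-8722 on the log2 scale from the edgeR fit unless another contrast is named, and levels are given in the order of passages 16, 17, 18 and 19.

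**Figure D1:**
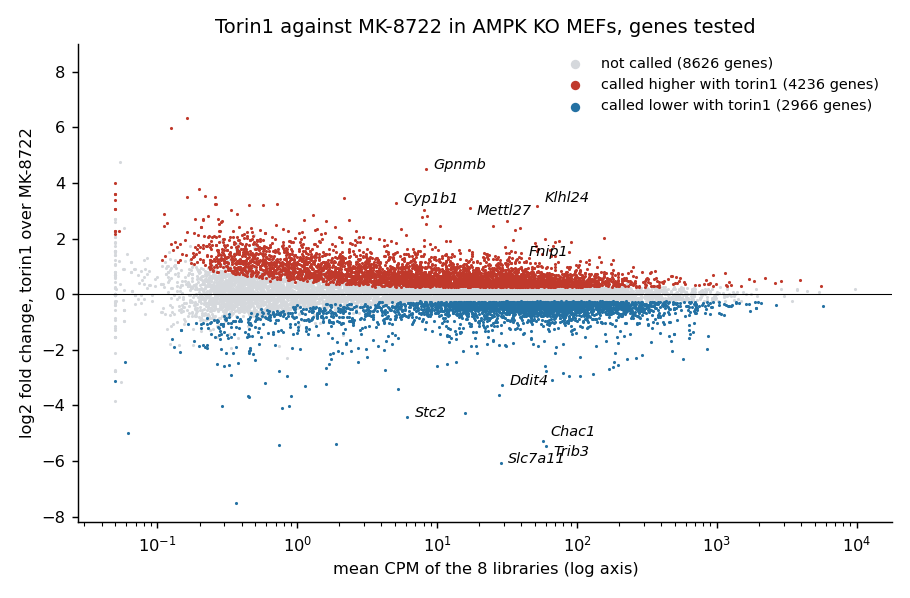
Log2 fold change of torin1 over MK-8722 (vertical axis) against the mean CPM of the 8 AMPK KO libraries (horizontal log axis, levels under 0.05 drawn at 0.05), 1 point per gene, red for the 4236 genes called higher with torin1 and blue for the 2966 called lower. The largest named rise is Gpnmb at 4.52, and the largest named fall is Slc7a11 at -6.09.

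Libraries held 29626094 to 31450199 estimated counts with torin1 and 30455698 to 33467698 with MK-8722, and replicates of a group always differed by more than counting noise. The median log2 fold change over all genes tested was 0.058. The fibroblast markers Vim, Col1a1 and Fbn1 were abundant, whereas Lum stayed at 0 counts and Dcn at 2 to 11 counts in each library, so not every marker of the labelled cell type was present. Markers of other cell types summed to 75.4 to 87.6 CPM with torin1 and to 115 to 125 CPM with MK-8722, mostly from Tubb3 and Sox2, and 13 of the 24 did not reach the level needed for a test, among them the leukocyte gene Ptprc. Their part in the results was not tested.

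The targeted genes were measured in every library. Prkaa1 (ENSMUSG00000050697, chromosome 15, 5143861 to 5181899) stood at 82.5, 75.7, 73.6 and 75.1 CPM with torin1 and at 65.6, 70.5, 72.6 and 67.7 CPM with MK-8722. Its transcript was therefore counted in all libraries labelled AMPK KO, at 76.7 ± 3.96 and 69.1 ± 3.11 CPM (mean ± SD, n = 4 each), and the change was under the 1.2-fold limit (log2 fold change 0.15, SE 0.047, adjusted p = 0.0086). Prkaa2 (ENSMUSG00000028518, chromosome 4, 105029874 to 105109890) was far less counted, at 5.71, 5.13, 4.42 and 4.46 CPM with torin1 against 4.21, 3.23, 2.61 and 3.58 CPM with MK-8722, and passed the call as higher (log2 fold change 0.53, SE 0.2, adjusted p = 0.023). Gene-level counts do not tell a truncated transcript from an intact one, so they check neither deletion, and directions between genotypes below rest on the labels. The Prkaa2 call was lost when any of 4 single libraries was left out, torin1 replicates 1 and 2 or MK-8722 replicates 3 and 4, with edgeR adjusted p between 0.068 and 0.13, and once the GC and length trend was removed (edgeR adjusted p = 0.14).

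The promoters of the genes that moved together were searched for 2 motifs on both strands, the CLEAR core TCACGTG, which contains the E-box CACGTG, and the ATF4 element TGATGNAA, each in a window of 300 bases around the RefSeq start closest to the gene's most abundant transcript. Among 10825 tested genes with a listed promoter, 6.04% held the CLEAR core and 2.03% held the ATF4 element. In 8478 of them the RefSeq start lay within 100 bases of the start of the most abundant transcript. The CLEAR core occurred in 9 of 27 promoters (33.3%) of V-ATPase and lysosomal membrane genes and in 7 of 39 (17.9%) of lysosomal hydrolase genes. Other lists came near or above the hydrolases, at 20% for the FOXO list, 18.8% for sterol genes and 15.4% for MTORC1 components, inputs and brakes. Autophagy genes held it in 3 of 39 promoters (7.69%), close to all promoters. For the ATF4 element the counts were 10 of 32 promoters (31.2%) of ATF4 targets and 5 of 14 (35.7%) of aminoacyl-tRNA synthetases, against 0% to 7.69% in the other 19 lists. A sterol element (TCACNCCAC) and a FOXO element (TGTTTAC) were searched too and held by 1.03% and 2.31% of all promoters, by 1 of 16 sterol synthesis promoters and by 1 of 15 promoters of the FOXO list. These matches describe the letters alone.

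The 250 bases before the start are printed for 4 genes that carry a match there and that the results turn on, 3 of them lower with torin1 and 1 higher. All come from RefSeq on GRCm38.p6, run 5′ to 3′ on the strand of the gene, and carry the CLEAR core or the ATF4 element in capitals, read on either strand.
Slc7a11 (chr3:50443614-50443863, minus strand): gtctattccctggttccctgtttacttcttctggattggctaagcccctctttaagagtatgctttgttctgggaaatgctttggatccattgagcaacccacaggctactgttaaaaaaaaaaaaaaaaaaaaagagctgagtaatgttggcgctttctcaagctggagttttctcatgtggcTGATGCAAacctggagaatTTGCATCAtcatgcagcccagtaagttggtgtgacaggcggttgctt
Chac1 (chr2:119350992-119351241, plus strand): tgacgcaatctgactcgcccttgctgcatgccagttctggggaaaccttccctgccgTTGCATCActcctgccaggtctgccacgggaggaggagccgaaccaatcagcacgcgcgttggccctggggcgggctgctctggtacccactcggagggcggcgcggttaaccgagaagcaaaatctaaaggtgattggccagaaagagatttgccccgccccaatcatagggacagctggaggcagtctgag
Herpud1 (chr8:94386179-94386428, plus strand): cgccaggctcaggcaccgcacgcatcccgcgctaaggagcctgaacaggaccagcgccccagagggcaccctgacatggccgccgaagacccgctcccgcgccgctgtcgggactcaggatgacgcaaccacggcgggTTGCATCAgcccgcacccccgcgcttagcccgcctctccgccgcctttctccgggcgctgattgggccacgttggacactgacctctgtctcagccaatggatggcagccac
Fnip1 (chr11:54437929-54438178, plus strand): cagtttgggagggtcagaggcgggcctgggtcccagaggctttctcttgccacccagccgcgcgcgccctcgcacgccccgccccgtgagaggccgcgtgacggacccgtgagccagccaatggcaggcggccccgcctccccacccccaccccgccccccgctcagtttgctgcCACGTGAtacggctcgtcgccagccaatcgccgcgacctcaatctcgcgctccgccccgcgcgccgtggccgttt
Slc7a11 held the ATF4 element at 2 places, the first base of the nearer one 47 bases before the start, and Chac1 and Herpud1 at 1 place each, 193 and 112 bases before it. In Fnip1 the CLEAR core began 75 bases before the start. Arsa also held the CLEAR core in its window, whereas Hexa, Ctsa, Flcn, Gpnmb, Ctns, Ctsf, Calcoco1 and Ulk2 held none. The RefSeq start used lay 1311 bases from the start of the most abundant transcript for Arsa and 451 bases for Flcn. Neither window covers that start. Trib3 and Yars also held the ATF4 element, whereas Stc2, Ddit4 and Sesn2 held none. ER genes, which include Herpud1, held the ATF4 element in 1 of 19 promoters (5.26%).

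Of the 21 gene lists described, ATF4 targets had the median farthest from 0. Of 37 tested genes for ATF4 and amino acid supply, 35 were lower with torin1 and 0 were higher, against 18.7% of all genes lower, and the median was -2.34. Slc7a11 (ENSMUSG00000027737, chromosome 3, 49892526 to 50443614), the cystine transporter of the plasma membrane, was at 1.11, 0.84, 0.451 and 0.885 CPM with torin1 and at 68.5, 42.6, 62.2 and 50.9 CPM with MK-8722. Every torin1 library lay far under every MK-8722 library, 68.1-fold apart in the means (log2 fold change -6.09, SE 0.58, adjusted p = 1.2e-10). Trib3 (ENSMUSG00000032715, chromosome 2, 152337422 to 152344032), a pseudokinase induced by ATF4, was at 2.73, 2.22, 3.16 and 2.59 CPM against 130, 90, 133 and 119 CPM (log2 fold change -5.46, SE 0.33, adjusted p = 1.2e-12). Chac1 (ENSMUSG00000027313, chromosome 2, 119351229 to 119354381), which degrades glutathione, had a narrow spread within each drug, with 2.95, 3.06, 2.8 and 2.66 CPM against 109, 97.6, 123 and 113 CPM (log2 fold change -5.27, SE 0.18, adjusted p = 8.3e-17). Stc2 (ENSMUSG00000020303, chromosome 11, 31357307 to 31370074), a secreted glycoprotein, stood at 0.614, 0.57, 0.571 and 0.427 CPM against 14.4, 8.59, 12.7 and 11 CPM (log2 fold change -4.41, SE 0.37, adjusted p = 7.8e-11). All 4 were named on condition that the groups did not overlap, which held for 54.3% of all genes tested.

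The fall ran through each branch of the ATF4 list. Among transcription factors, Atf4 itself fell by 2.04, Atf5 by 2.43 and Atf3 by 2.60 on the log2 scale. Of the serine and one-carbon enzymes, Psph was at -2.96, Mthfd2 at -2.70 and Phgdh, which opens serine synthesis, at -1.30. Amino acid transporters gave -2.57 for Slc1a4, -2.35 for Slc7a5, the leucine carrier, and -1.72 for Slc3a2, its partner chain. Asns, asparagine synthetase, was at -2.28. The secreted stress factor Gdf15 stood at -5.40, with few counts under torin1 (0.0601 to 0.12 CPM against 3.03 to 4.03 CPM), so its size is uncertain. The 2 members that did not pass were Ppp1r15a, which directs the dephosphorylation of eIF2α, at -0.13 and the cationic amino acid transporter Slc7a3 at 0.30.

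**Figure D2:**
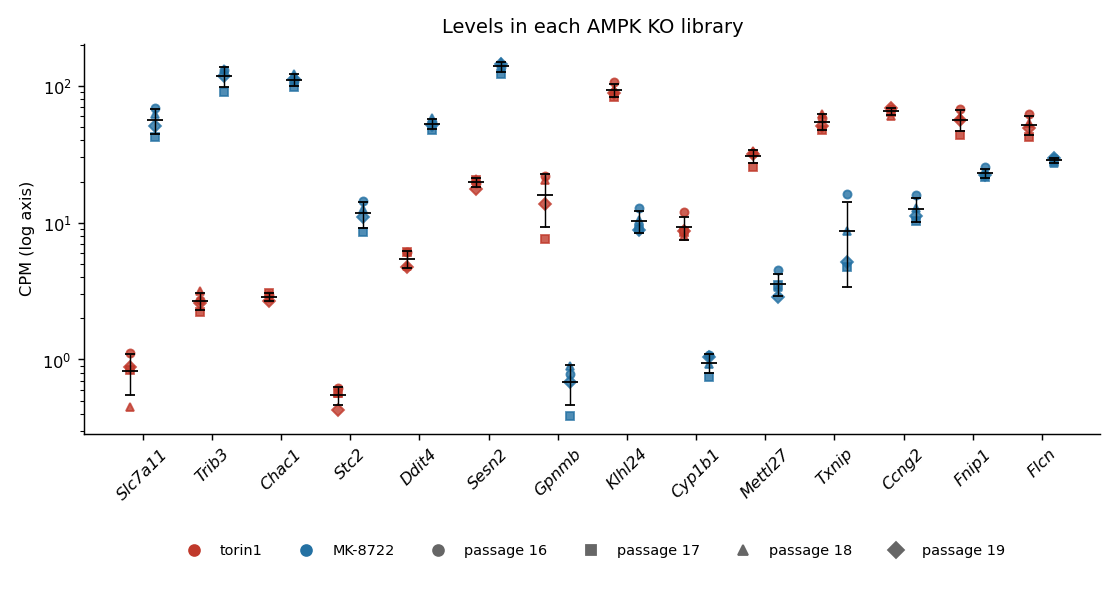
CPM (vertical log axis) of 14 genes in each AMPK KO library, red for torin1 and blue for MK-8722, with the marker shape giving the passage and black bars the mean ± SD of 4 libraries. In none of the 14 genes do red and blue points overlap, with the 6 genes on the left lower and the other 8 higher with torin1. Slc7a11, Trib3, Chac1, Stc2, Gpnmb, Klhl24, Cyp1b1 and Mettl27 were named on condition of no overlap, which 54.3% of all genes tested showed.

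Enzymes that charge tRNAs with amino acids were lower too. Of 21 cytosolic aminoacyl-tRNA synthetase genes, a list that includes the tRNA export factor Xpot, 17 were lower and 1 was higher. The median was -1.09, and 18.7% of all genes were lower and 26.8% higher. Yars, the tyrosine enzyme, was at 93.3, 87.5, 90.9 and 90.8 CPM with torin1 and 326, 290, 307 and 292 CPM with MK-8722 (log2 fold change -1.74, SE 0.1, adjusted p = 1.7e-12). Cars, the cysteine enzyme, was at 75.7, 74.6, 75 and 79 CPM against 255, 236, 249 and 245 CPM (log2 fold change -1.69, SE 0.14, adjusted p = 3.5e-10). Both sets of libraries were tight and did not overlap. Qars, the glutamine enzyme, was the member called higher, at 0.33, while Dars, Kars and Vars did not pass, at 0.01, 0.07 and -0.14.

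Endoplasmic reticulum (ER) genes were mostly lower as well. Of 22 ER chaperone and unfolded protein response genes, 16 were lower and 1 higher, against 18.7% and 26.8% of all genes. The median was -0.47. Herpud1, a membrane protein of ER-associated degradation, was at 26.5, 23, 27.3 and 26.7 CPM with torin1 and 105, 103, 126 and 120 CPM with MK-8722 (log2 fold change -2.13, SE 0.11, adjusted p = 2.1e-13). Xbp1, a transcription factor of the unfolded protein response, was at 12.6, 14.8, 13.7 and 12.1 CPM against 50.3, 45.8, 48.6 and 51.8 CPM (log2 fold change -1.88, SE 0.093, adjusted p = 1.3e-13). The chaperone Hspa5 (BiP) was at -1.36. Dnajb9, a cochaperone of Hspa5, was the member called higher, at 0.33.

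Of 47 genes for MTORC1 components, amino acid inputs and brakes, 15 (31.9%) were higher, 12 (25.5%) were lower and the median was 0.05. These shares lie near the 26.8% and 18.7% of all genes. The largest falls were 2 stress-induced brakes that also belong to the ATF4 list. Ddit4 (ENSMUSG00000020108, chromosome 10, 59949669 to 59951834), also called REDD1, was at 6.14, 6.09, 4.81 and 4.76 CPM with torin1 and 54.3, 48, 58.2 and 51.4 CPM with MK-8722 (log2 fold change -3.28, SE 0.13, adjusted p = 6.4e-15). Sesn2 (ENSMUSG00000028893, chromosome 4, 132492032 to 132510501), a leucine sensor, was at 19.5, 20.6, 20.9 and 17.7 CPM against 138, 123, 150 and 144 CPM (log2 fold change -2.82, SE 0.13, adjusted p = 6.1e-14). The translation repressor Eif4ebp1 was at -1.51. Against these, Deptor, an MTOR-binding inhibitor, was higher at 1.40, Rragb and Rragd, which encode Rag GTPases, at 1.10 and 0.65, and Tsc1 at 0.58. The Rag GTPase genes did not all rise. Rragc was 1.49-fold higher, but Rraga was 1.42-fold lower, at 51.6 to 55.5 CPM with torin1 against 74.3 to 78.3 CPM with MK-8722. Mtor itself did not pass, at 0.15.

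Folliculin and its partner, which act on the Rag GTPases at the lysosome, were higher. Flcn (ENSMUSG00000032633, chromosome 11, 59791408 to 59810016) was at 62.2, 42.7, 53.8 and 49.4 CPM with torin1 and 29.8, 28.3, 27.2 and 29.5 CPM with MK-8722 (log2 fold change 0.86, SE 0.077, adjusted p = 1.5e-09). Fnip1 (ENSMUSG00000035992, chromosome 11, 54438199 to 54518235) was at 67.4, 43.8, 59.7 and 56 CPM against 25.6, 21.6, 23.1 and 22.2 CPM (log2 fold change 1.29, SE 0.11, adjusted p = 6e-10). In both genes the torin1 libraries spread more widely than the MK-8722 libraries, with passage 17 the lowest, and the groups did not overlap.

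None of the TFEB-family factors was called higher. Tfeb (ENSMUSG00000023990, chromosome 17, 47737030 to 47792419) was at 8.63, 9.18, 9.74 and 9.13 CPM with torin1 and at 10.6, 11.5, 12.3 and 12.1 CPM with MK-8722, lower in all torin1 libraries (log2 fold change -0.34, SE 0.096, adjusted p = 0.0037). Tfe3 (ENSMUSG00000000134, chromosome X, 7762560 to 7775202) was lower too, at 63.2, 68, 68 and 67.3 CPM against 90.1, 94.8, 91.9 and 90.7 CPM (log2 fold change -0.46, SE 0.039, adjusted p = 5.5e-10). Mitf (ENSMUSG00000035158, chromosome 6, 97807052 to 98021349) overlapped between the drugs, at 4.52, 3.93, 4.12 and 3.42 CPM and 4.99, 3.2, 4.44 and 3.29 CPM (log2 fold change 0.01, SE 0.16, adjusted p = 0.98). The Tfeb call was lost with scaling by library size alone and with an offset for transcript length, both at -0.26.

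Lysosomal genes were higher with torin1. Of 49 tested lysosomal hydrolases and activators, 28 were higher, 1 was lower and 20 did not pass, with a median of 0.42, against 26.8% of all genes called higher. Hexa (ENSMUSG00000025232, chromosome 9, 59539540 to 59565109), a subunit of the hexosaminidase that degrades gangliosides, was at 66.4, 45.8, 67.3 and 59.2 CPM with torin1 and 40.4, 38.9, 41.8 and 39.8 CPM with MK-8722 (log2 fold change 0.57, SE 0.084, adjusted p = 3.5e-06). Ctsa (ENSMUSG00000017760, chromosome 2, 164832873 to 164841032), cathepsin A, was at 205, 162, 202 and 181 CPM against 108, 108, 110 and 106 CPM (log2 fold change 0.8, SE 0.06, adjusted p = 9.8e-11). Arsa, which removes sulfate from sulfatides, was at 57.8, 44.6, 59.1 and 51.7 CPM against 20.2, 17.8, 19.2 and 18.4 CPM (log2 fold change 1.5, SE 0.088, adjusted p = 2e-12). Ctsf, cathepsin F, was at 26, 22.9, 25.2 and 24.5 CPM against 11.8, 9.69, 10.9 and 9.07 CPM (log2 fold change 1.25, SE 0.1, adjusted p = 3.2e-10). None of these 4 overlapped, and in each the lowest torin1 value was that of passage 17. The member called lower was Acp5, an acid phosphatase, at -1.05, and it was not called when the compared libraries were fitted alone, by DESeq2 or with scaling by library size alone. The abundant proteases Ctsb and Ctsl did not pass, at -0.02 and -0.06.

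Genes of the lysosomal membrane and its proton pump were higher in the larger part. Of 35 such genes, 19 were higher and 3 lower, with a median of 0.36, against 26.8% and 18.7% of all genes. Gpnmb (ENSMUSG00000029816, chromosome 6, 49036546 to 49070929), a lysosomal glycoprotein, was at 21.8, 7.56, 20.7 and 13.7 CPM with torin1 and at 0.782, 0.387, 0.901 and 0.681 CPM with MK-8722, 23-fold apart in the means (log2 fold change 4.52, SE 0.47, adjusted p = 5.8e-10). Its torin1 libraries ranged widely, yet the lowest, passage 17, was above every MK-8722 library. Ctns, the lysosomal cystine exporter, was at 19.5, 13.1, 15.1 and 13.6 CPM against 7.55, 5.59, 6.47 and 5.42 CPM (log2 fold change 1.29, SE 0.13, adjusted p = 8.7e-09). Cln3, a lysosomal membrane protein, was at 1.26 and the cholesterol exporter Npc1 at 0.94. Among pump subunits, Atp6v1b2 and Atp6v0d1 were higher at 0.71 and 0.66, Atp6v0e and Atp6v0c were lower at -0.58 and -0.37, and Atp6v1a, which binds ATP, was at 0.00.

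Autophagy genes rose in the larger part. Of 48 genes for the machinery and its receptors, 26 were higher and 6 lower, against 26.8% and 18.7% of all genes. Their median was 0.30. Calcoco1, a receptor for the degradation of ER, was at 249, 237, 266 and 247 CPM with torin1 and 69.7, 59.4, 58.5 and 59.8 CPM with MK-8722 (log2 fold change 2.01, SE 0.058, adjusted p = 1.6e-17). Ulk2, an initiating kinase, was at 50.6, 48, 49.7 and 51.1 CPM against 26.1, 20.9, 22.7 and 21.1 CPM (log2 fold change 1.13, SE 0.066, adjusted p = 1.5e-12). Other kinase and lipid kinase subunits were higher, with Atg14 at 1.05, Pik3c3 at 0.87 and Atg13 at 0.73. Receptors gave 0.87 for Nbr1 and 0.64 for Sqstm1, and the membrane protein Map1lc3b gave 0.83. The 6 lower members included Atg5 at -0.50 and Atg16l1 at -0.40, which act together in lipidation of LC3, and Becn1 at -0.41.

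**Figure D3:**
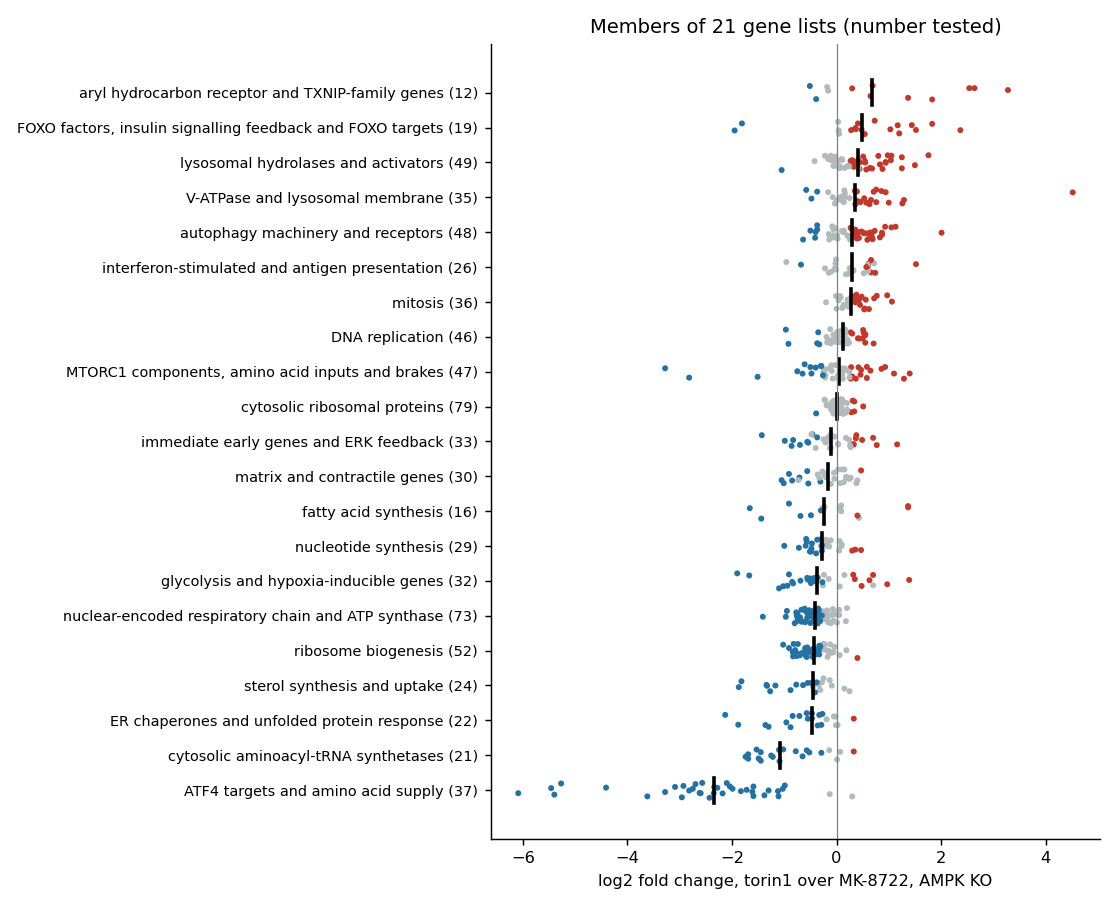
Log2 fold change of torin1 over MK-8722 in AMPK KO (horizontal axis) for every tested member of 21 gene lists, 1 point per gene, red if called higher, blue if called lower and grey if not called, with a black line at the median and the number tested in brackets. Medians run from -2.34 for ATF4 targets to 0.67 for the aryl hydrocarbon receptor and TXNIP-family genes, with cytosolic ribosomal proteins at 0.01.

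FOXO and insulin feedback genes were higher with torin1. Of 19 genes for FOXO factors, insulin signalling feedback and FOXO targets, 14 were higher and 2 lower, against 26.8% and 18.7% of all genes. The median was 0.48. Ccng2, a cyclin linked to cell cycle arrest, was at 67.3, 64.3, 60 and 68.9 CPM with torin1 and 15.9, 10.3, 12.9 and 11.2 CPM with MK-8722 (log2 fold change 2.37, SE 0.087, adjusted p = 1.3e-15). Fbxo32, a ubiquitin ligase subunit of muscle atrophy, was at 74.2, 83.6, 74.9 and 81 CPM against 20.3, 23.6, 20.1 and 24.1 CPM (log2 fold change 1.83, SE 0.088, adjusted p = 1.1e-13). The insulin receptor gene Insr was at 0.73 and the regulator Pik3ip1, which restrains PI3K, at 1.44, with Foxo1 and Foxo3 at 1.03 and 1.17. Bcl6 and Gadd45a went the other way, at -1.95 and -1.81.

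Genes of the aryl hydrocarbon receptor and the TXNIP family gave 8 higher and 2 lower of 12 tested, with a median of 0.67. The shares of all genes were 26.8% and 18.7%. Cyp1b1 (ENSMUSG00000024087, chromosome 17, 79701537 to 79715061), a cytochrome P450 induced by the receptor, was at 12, 8.49, 8.05 and 8.64 CPM with torin1 and 1.08, 0.743, 0.934 and 1.04 CPM with MK-8722 (log2 fold change 3.28, SE 0.45, adjusted p = 2.9e-07). Cyp1a1, the classical receptor target, was at 2.54, and Ahr, the receptor itself, did not pass at -0.16. The Cyp1a1 value rested on few counts, at 0.331 to 0.6 CPM with torin1 and 0.0296 to 0.129 CPM with MK-8722. Txnip (ENSMUSG00000038393, chromosome 3, 96557957 to 96561883), a glucose-responsive arrestin that binds thioredoxin, was at 58.7, 47.3, 62.7 and 50.6 CPM against 16.3, 4.78, 8.69 and 5.13 CPM (log2 fold change 2.64, SE 0.34, adjusted p = 6.1e-07). The MK-8722 libraries of Txnip were spread widely, with passage 16 the highest, but stayed under all torin1 libraries.

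Klhl24 and Mettl27 completed the largest rises named. Klhl24 (ENSMUSG00000062901, chromosome 16, 20097542 to 20129221), a substrate adaptor of a ubiquitin ligase, was at 107, 83, 93.6 and 88.8 CPM with torin1 and 12.9, 9.01, 10.5 and 8.83 CPM with MK-8722 (log2 fold change 3.17, SE 0.11, adjusted p = 8.2e-16). Mettl27 (ENSMUSG00000040557, chromosome 5, 134932368 to 134942637), a methyltransferase-like gene, was at 32.4, 25.5, 33.2 and 31.9 CPM against 4.48, 3.49, 3.41 and 2.87 CPM (log2 fold change 3.11, SE 0.13, adjusted p = 2e-14). Lack of overlap between the drugs was a condition for naming both.

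Sterol genes were lower with torin1. Of 24 genes of sterol synthesis and uptake, 15 were lower and 0 higher, against 18.7% and 26.8% of all genes. The median was -0.45. Msmo1, a demethylating oxidase of the pathway, was at 14.1, 13.7, 12.8 and 13.6 CPM with torin1 and 34.1, 46.3, 56.2 and 53.9 CPM with MK-8722 (log2 fold change -1.82, SE 0.22, adjusted p = 2.4e-07). The MK-8722 library of passage 16 was the lowest of its group, though still above every torin1 library, and without that library 17 of 24 genes were called lower. Fatty acid synthesis genes were mixed, with 3 (18.8%) higher and 6 (37.5%) lower of 16 and a median of -0.24. Among all genes 26.8% were higher and 18.7% lower. The elongase Elovl6 was at 9.99, 15.3, 11 and 11.8 CPM against 28.8, 42.2, 40.6 and 39.9 CPM (log2 fold change -1.66, SE 0.2, adjusted p = 1.6e-07), and the desaturase Scd2 at 231, 293, 276 and 260 CPM against 558, 707, 835 and 780 CPM (log2 fold change -1.44, SE 0.23, adjusted p = 1.2e-05). Lpin1 and Acacb went the other way, both at 1.37.

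The list of glycolysis and hypoxia-inducible genes was lower in the larger part. Of 32 genes, 19 (59.4%) were lower and 7 (21.9%) higher, with a median of -0.38, against 18.7% and 26.8% of all genes. Vegfa, the vascular growth factor, was at 33.3, 30.7, 27.6 and 28.6 CPM with torin1 and 118, 98.3, 120 and 113 CPM with MK-8722 (log2 fold change -1.9, SE 0.13, adjusted p = 2.4e-11). Hk2, which phosphorylates glucose, was at 29.4, 28, 25 and 27.8 CPM against 74.5, 86.7, 96.7 and 93.6 CPM (log2 fold change -1.67, SE 0.1, adjusted p = 5.8e-12). Further falls were -1.02 for the glucose transporter Slc2a1, -0.94 for Ldha and -0.44 for Hif1a. Pdk1, which holds back pyruvate oxidation, was higher at 1.39, and Ndrg1 at 0.97. Hypoxia-inducible members thus went both ways. Mxi1 and Ankrd37 were also higher, by 1.55-fold and 1.62-fold, whereas P4ha1 and P4ha2 were lower, by 1.77-fold and 1.8-fold.

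Genes that build ribosomes were mostly lower. Of 52 ribosome biogenesis genes, 34 were lower and 1 higher, with a median of -0.43, against 18.7% and 26.8% of all genes. Rrp12, which acts in export and processing of preribosomes, was at 98.8, 114, 98.2 and 107 CPM with torin1 and 208, 221, 201 and 216 CPM with MK-8722 (log2 fold change -1.02, SE 0.079, adjusted p = 1.8e-10). Rrs1, an assembly factor, was at 54.8, 56.4, 55.8 and 57.6 CPM against 93.5, 114, 106 and 108 CPM (log2 fold change -0.91, SE 0.094, adjusted p = 1.6e-08). The member called higher was Myc, at 0.40. Of 79 cytosolic ribosomal protein genes, 5 were higher, 1 was lower and 73 did not pass, with a median of 0.01. Rpl10a was at 991, 952, 953 and 1010 CPM against 684, 707, 659 and 696 CPM (log2 fold change 0.51, SE 0.037, adjusted p = 6.1e-11), and Rpl27 at 331, 370, 335 and 357 CPM against 457, 476, 432 and 467 CPM (log2 fold change -0.39, SE 0.043, adjusted p = 3.1e-08). Neither gene overlapped between the drugs. Ribosomal protein genes have many processed copies, and reads shared with such copies make the single values uncertain.

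Nucleotide synthesis genes gave 15 lower and 3 higher of 29, with a median of -0.28, against 18.7% and 26.8% of all genes. Nme1, a nucleoside diphosphate kinase, was at 63, 83.8, 67.8 and 77.8 CPM with torin1 and 140, 153, 141 and 153 CPM with MK-8722 (log2 fold change -1, SE 0.064, adjusted p = 6.8e-12). Dhodh, the mitochondrial enzyme of pyrimidine synthesis, was at 16.5, 18.4, 18.1 and 19.2 CPM against 29.5, 29.5, 29.1 and 31 CPM (log2 fold change -0.72, SE 0.062, adjusted p = 7.9e-10). Paics, of purine synthesis, was higher at 0.47.

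Respiratory chain genes were mostly lower. Of 73 nuclear-encoded respiratory chain and ATP synthase genes, 49 were lower, 24 did not pass and 0 were higher. The median was -0.41, and 18.7% of all genes were lower and 26.8% higher. Uqcrq, of complex III, was at 49.2, 59.4, 52.8 and 55.1 CPM with torin1 and 153, 138, 143 and 142 CPM with MK-8722 (log2 fold change -1.41, SE 0.062, adjusted p = 2.5e-14). Atp5g1, of the ATP synthase ring, was at 61, 75.4, 64.2 and 67.5 CPM against 132, 137, 123 and 135 CPM (log2 fold change -0.97, SE 0.058, adjusted p = 2.3e-12). Neither overlapped. Subunits that did not pass included Ndufs1 at 0.01, Sdha at 0.18 and Atp5b at -0.17. Main transcripts of this list had a median length of 704 bases against 2307 bases over all genes. After removal of a trend with GC content and length in each library, 52 members were called lower, and with scaling by library size alone 44 were called lower and 2 higher.

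Mitosis genes were higher in the larger part. Of 36 mitosis genes, 20 were higher and 0 lower, with a median of 0.28. Ndc80, which links kinetochores to microtubules, was at 139, 126, 134 and 135 CPM with torin1 and 66.4, 61.1, 63.9 and 65 CPM with MK-8722 (log2 fold change 1.06, SE 0.046, adjusted p = 2e-14). Cenpe, a kinetochore motor, was at 324, 334, 303 and 360 CPM against 167, 175, 155 and 179 CPM (log2 fold change 0.97, SE 0.062, adjusted p = 8.3e-12). Cdk1, Ccnb1 and Foxm1 did not pass, at 0.07, 0.06 and 0.00. Of 46 DNA replication genes, 11 (23.9%) were higher and 5 (10.9%) lower, against 26.8% and 18.7% of all genes, so no larger share of them was called than of genes at large. Their median was 0.13. The 2 largest falls were in E2f2, a transcription factor of S-phase genes, at 13, 14.7, 13.6 and 12.2 CPM against 26.1, 28.6, 25.7 and 24.6 CPM (log2 fold change -0.97, SE 0.086, adjusted p = 1.4e-09) and in the cyclin gene Ccne1 at 21.8, 28.7, 24.4 and 23 CPM against 51.4, 46.2, 45.1 and 42.6 CPM (log2 fold change -0.92, SE 0.08, adjusted p = 9.4e-10). Without the GC and length trend, the mitosis count was 14 higher and the replication count 8 higher and 7 lower.

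Immediate early and ERK feedback genes had no common direction, with 8 (24.2%) higher and 9 (27.3%) lower of 33 and a median of -0.11, against 26.8% and 18.7% of all genes. Klf4 was at 8.2, 7.02, 6.79 and 7.26 CPM with torin1 and 20.1, 16.5, 21.7 and 20.7 CPM with MK-8722 (log2 fold change -1.43, SE 0.18, adjusted p = 4e-07). Fosl1, a subunit of AP-1, was at 51.8, 67.6, 54.8 and 56.7 CPM against 91, 151, 101 and 115 CPM (log2 fold change -0.99, SE 0.15, adjusted p = 7.5e-06). Egr2 was higher at 1.16, and Fos and Egr1 did not pass, at 0.26 and -0.25.

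Matrix and contractile genes gave 8 (26.7%) lower and 1 (3.33%) higher of 30, with a median of -0.16, against 18.7% and 26.8% of all genes. The collagen genes Col1a1 and Col5a1 were at 319, 545, 459 and 475 CPM against 830, 960, 951 and 993 CPM (log2 fold change -1.05, SE 0.25, adjusted p = 0.0011) and at 247, 357, 302 and 312 CPM against 522, 667, 619 and 647 CPM (log2 fold change -1.01, SE 0.2, adjusted p = 0.00015). In both, passage 16 was the lowest torin1 library and the groups did not overlap. Fibronectin (Fn1) was the member called higher, at 0.47, and the contractile genes Acta2 and Tagln did not pass.

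Interferon-stimulated and antigen presentation genes gave 8 higher and 1 lower of 26, with a median of 0.29. The share called higher was 30.8%, against 26.8% of all genes. Irf7, a regulator of interferon genes, was highest at 1.52. Oasl2 was at 8.63, 5.46, 11.4 and 8.06 CPM with torin1 and 5.78, 2.84, 6.82 and 4.59 CPM with MK-8722, where the groups overlapped (log2 fold change 0.74, SE 0.25, adjusted p = 0.014), and its call was lost without torin1 replicate 3 or MK-8722 replicate 3. Isg15, a ubiquitin-like modifier, was the member called lower, at 7.34, 5.94, 9.62 and 7.05 CPM against 14.7, 8.43, 13.9 and 10.8 CPM (log2 fold change -0.68, SE 0.22, adjusted p = 0.0096), also with overlap.

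Levels in the AMPK KO libraries given DMSO are set beside both drugs. For Slc7a11, the means were 0.82 ± 0.273 CPM with torin1, 36.1 ± 8.3 with DMSO and 56.1 ± 11.6 with MK-8722 (± SD, n = 4 each). Stc2 followed the same order, at 0.546 ± 0.0816, 4.87 ± 0.846 and 11.7 ± 2.49 CPM. Vegfa stood at 30.1 ± 2.55, 73.3 ± 5.54 and 112 ± 9.79 CPM. Cyp1b1 was ordered the other way, with 9.29 ± 1.81 CPM with torin1, 4.35 ± 1.39 with DMSO and 0.949 ± 0.151 with MK-8722, as was Txnip with 54.8 ± 7.1, 20.8 ± 6.38 and 8.73 ± 5.37 CPM. In lysosomal genes the MK-8722 mean lay beside that of DMSO, for Gpnmb 0.688 ± 0.22 against 0.842 ± 0.181 CPM, for Fnip1 23.1 ± 1.77 against 21.9 ± 2.51 CPM and for Ctsa 108 ± 1.95 against 109 ± 1.22 CPM. Fitted log2 fold changes over DMSO were -5.46 for torin1 and 0.63 for MK-8722 in Slc7a11, -3.15 and 1.26 in Stc2, 1.09 and -2.19 in Cyp1b1, and 4.24 and -0.28 in Gpnmb. Both contrasts use the same DMSO libraries and are given side by side without a test.

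The contrast of the drugs differed between genotypes at 3619 genes (22.9%), tested as the log2 fold change of torin1 over MK-8722 in AMPK KO minus that in WT in the same edgeR fit. Of these, 2148 (13.6%) were higher and 1471 (9.29%) lower in AMPK KO. Which direction held more calls was not stable. The share higher was 59.4%, 52.4% with DESeq2 size factors, 46% with at least 10 counts in every compared library and 41.9% when the 16 libraries were fitted alone, where the median difference over all genes was -0.071 against 0.003. It was 41.7% to 43.3% without any 1 of 9 libraries (WT torin1 replicates 1 and 3, WT MK-8722 replicates 2, 3 and 4, AMPK KO torin1 replicates 2 and 4, AMPK KO MK-8722 replicates 3 and 4) and 56.5% to 61.2% without any 1 of the other 7. Of the genes called in AMPK KO, 4445 (61.7%) were also called in the same direction in WT, which is 61.5% of those called in WT, and 245 were called in opposite directions. Of the 2512 genes called in AMPK KO and not in WT, 1031 passed the test of the difference itself. Across genes the fold changes of the genotypes had a Pearson r of 0.59 and a Spearman rho of 0.63, and genes are not independent replicates. Genotypes shared no passage, so genotype and passage range cannot be told apart. The study names no separate cell lines within a genotype, so genotype and cell line cannot be told apart either. The p-values of the genotype difference therefore do not measure spread between lines.

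Lysosomal genes were among those that differed. Over all genes tested, 13.6% had a called difference higher in AMPK KO and 9.29% a lower one. Of 49 hydrolase genes, 33 had a called difference that was higher in AMPK KO and 1 lower, with medians of 0.42 in AMPK KO and -0.15 in WT. Among lysosomal membrane genes the counts were 29 and 1 of 35, with medians of 0.36 and -0.37, and among autophagy genes 27 and 1 of 48, with medians of 0.30 and -0.04. These counts were 31, 28 and 22 higher when the 16 libraries were fitted alone. Hexa was 0.57 in AMPK KO and -0.7 in WT (difference 1.27, SE 0.12, adjusted p = 3e-08). Fnip1 was 1.29 and -0.47 (difference 1.77, SE 0.15, adjusted p = 9.4e-09), and Flcn 0.86 and -0.55 (difference 1.41, SE 0.11, adjusted p = 1.8e-09). Ctsa was 0.8 in AMPK KO and did not pass in WT at -0.26 (difference 1.05, SE 0.085, adjusted p = 3.8e-09). Gpnmb had the largest difference of the higher kind among genes of at least 5 CPM. It was 4.52 in AMPK KO and -0.1 in WT (difference 4.63, SE 0.53, adjusted p = 8.9e-08). Mean levels with torin1 in AMPK KO and WT were 59.7 and 59.4 CPM for Hexa and 56.7 and 51.6 for Fnip1. They were 52 and 49 for Flcn, 188 and 174 for Ctsa and 16 and 40.8 for Gpnmb. With MK-8722 they were 40.2 and 96.5 CPM for Hexa and 23.1 and 71.6 for Fnip1. Those of Flcn were 28.7 and 71.8, of Ctsa 108 and 207 and of Gpnmb 0.688 and 43.9.

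**Figure D4:**
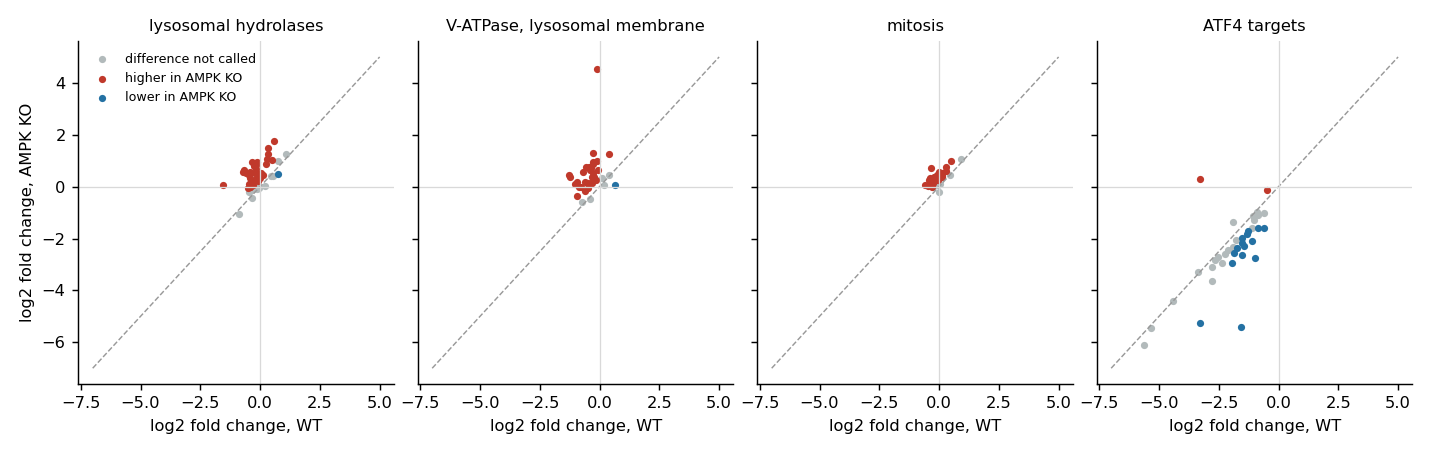
Log2 fold change of torin1 over MK-8722 in AMPK KO (vertical axis) against that in WT (horizontal axis) for the members of 4 gene lists, with a dashed line where both are equal, red where the difference was called higher in AMPK KO and blue where it was called lower. Most lysosomal and mitosis genes lie above the dashed line. ATF4 targets have medians of -2.34 in AMPK KO and -1.74 in WT. Of 37, 15 were called lower in AMPK KO and 2 higher, against 9.29% and 13.6% of all genes. Slc7a3 lies far above the line.

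Mitosis and ER genes also differed in the main, with 30 of 36 and 18 of 22 called higher in AMPK KO. Among all genes this share was 13.6%, and 9.29% were called lower. Medians in AMPK KO and WT were 0.28 and -0.09 for mitosis and -0.47 and -1.15 for ER genes. Of 24 sterol genes, 10 had a called difference that was higher in AMPK KO, at medians of -0.45 and -1.08. Without WT MK-8722 replicate 2 this count was 18. Ribosome biogenesis gave 21 of 52 lower in AMPK KO, at medians of -0.43 and -0.20, and ATF4 targets 15 of 37 lower and 2 higher. Chac1 was -5.27 in AMPK KO and -3.3 in WT (difference -1.97, SE 0.25, adjusted p = 1.8e-06), whereas for Slc7a11 and Trib3 the differences of -0.46 and -0.15 did not pass. Without WT MK-8722 replicate 2 the counts were 34 lower for ribosome biogenesis and 25 lower for ATF4 targets.

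Pde4b, Afap1l2 and Slc7a3 changed more in WT than in AMPK KO. Pde4b (ENSMUSG00000028525, chromosome 4, 102087543 to 102607259), a phosphodiesterase that degrades cyclic AMP, was at 45, 32.1, 36.2 and 36.6 CPM with torin1 and 23.2, 23.5, 23.7 and 22.8 CPM with MK-8722 in AMPK KO, which gave 0.69, against 4.8 in WT (difference -4.12, SE 0.19, adjusted p = 1.3e-13). Afap1l2 (ENSMUSG00000025083, chromosome 19, 56912361 to 57008228), an adaptor of SRC signalling, was at 41.5, 43.3, 51.9 and 43.6 CPM against 36.3, 30.3, 43.1 and 33.4 CPM, with overlap, giving 0.33 against 3.68 in WT (difference -3.35, SE 0.3, adjusted p = 1.8e-09). Slc7a3 (ENSMUSG00000031297, chromosome X, 101079210 to 101086020) was near 1 CPM in all 8 AMPK KO libraries, at 0.891, 1.17, 1.53 and 1.01 CPM and 1.23, 0.872, 0.644 and 0.978 CPM, and did not pass, against -3.27 in WT (difference 3.57, SE 0.6, adjusted p = 8.6e-05). In WT, the means with torin1 and MK-8722 were 25.8 and 0.926 CPM for Pde4b, 7.28 and 0.569 for Afap1l2 and 2.16 and 20.8 for Slc7a3. With torin1 over MK-8722, Tfeb and Klf4 were lower in AMPK KO and higher in WT. Tfeb was -0.34 in AMPK KO and 0.44 in WT (difference -0.78, SE 0.14, adjusted p = 0.00015), and Klf4 was -1.43 and 0.5 (difference -1.94, SE 0.25, adjusted p = 2.7e-06).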

How the data were processed

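Poly(A) RNA was sequenced as paired-end reads in 24 libraries, 4 per group. Per the study's methods, the authors ran nf-core/rnaseq with STAR and Salmon on GRCm38 with an Ensembl annotation and gave options for molecular identifiers. The deposited gene table holds estimated counts without normalization. TPM and effective lengths, as deposited by the authors per transcript, served as weights for a length offset and to find main transcripts. Libraries were grouped by the labels of genotype and treatment.

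After rounding of the estimated counts and removal of low genes by filterByExpr, TMM factors were computed and a quasi-likelihood model with 6 group means was fitted in edgeR (version 4.0.16, R 4.3.3) to all 24 libraries. The two-sided p-values of the 15828 genes left (of 55487, with 99.96% of counts) were corrected by Benjamini and Hochberg. A call needed a corrected value under 0.05 together with a change of 1.2-fold or more. The common biological coefficient of variation was 0.079. The p-values measure the spread between libraries of separate passages. CPM use the TMM factors.

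The 21 gene lists, the 2 marker lists and the comparison itself were chosen with earlier results of these data known. Named were Prkaa1, Prkaa2, the 3 TFEB-family genes, 4 genes the study followed by RT-qPCR, the 2 called members of each list with the largest change, the 4 largest rises and falls without overlap (gene models and pseudogenes skipped) and the 2 largest genotype differences each way, with a mean of at least 5 CPM for those chosen by size. A gene that the rule also named is not reported here. Other members stand beside their list's count and were picked after their values were seen. Positions are from GENCODE on GRCm38, which held 99.87% of the genes, and promoters from RefSeq on GRCm38.p6, with 46 of 57 named genes matched. Alternatives were other scalings, filters and thresholds, unrounded counts, a length offset, blocks, fewer libraries, DESeq2 1.42.0 and, added after the data were seen, removal of a GC and length trend. Procedures were tested on simulated data.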

Additional observations from a re-analysis of the deposited data

Results flagged for a closer look

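In 114 sets of 4 values (57 named genes under each drug), 4 had 1 library apart from the other 3 by Dixon's test, where chance gives about 1 in 20. Tfe3 was at 63.2 CPM in the torin1 library of passage 16 against 67.3 to 68 CPM in the others. Calcoco1 was at 69.7 CPM in the MK-8722 library of passage 16 against 58.5 to 59.8 CPM. Cyp1b1 was at 12 CPM in the torin1 library of passage 16 against 8.05 to 8.64 CPM, and Mettl27 at 25.5 CPM in the torin1 library of passage 17 against 31.9 to 33.2 CPM. Of these 4 values 3 were in libraries of passage 16. Which cause set them apart was not tested.

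The contrast of torin1 over MK-8722 differed between genotypes at 3619 genes and at 30 of the 57 named genes. Of these named genes, 17 were higher and 13 lower in AMPK KO (edgeR, log2 fold change in AMPK KO minus that in WT). Higher and lower refer here to this contrast and not to the level of a gene. Among lysosomal, autophagy and folliculin genes the differences were 4.63 for Gpnmb, 1.77 for Fnip1, 1.55 for Ctns, 1.41 for Flcn, 1.27 for Hexa, 1.15 for Arsa, 1.05 for Ctsa, 0.71 for Ulk2 and 0.66 for Calcoco1. Other genes higher in AMPK KO were Slc7a3 (3.57), Klhl24 (2.04), Mettl27 (1.56), Prkaa2 (1.31), Msmo1 (1.13), Ccng2 (1.07), Fbxo32 (0.61) and Cenpe (0.45). Lower in AMPK KO were Pde4b (-4.12), Afap1l2 (-3.35), Chac1 (-1.97), Klf4 (-1.94), Txnip (-1.51), Tfeb (-0.78), E2f2 (-0.77), Ccne1 (-0.73), Xbp1 (-0.53), Rrp12 (-0.49), Dhodh (-0.4), Atp5g1 (-0.4) and Uqcrq (-0.35). The difference of Txnip lost its call without WT MK-8722 replicate 1 (-1.27) or AMPK KO MK-8722 replicate 2 (-1.02).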

How the results depend on the processing

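The count of 7202 genes called in AMPK KO was 7200 with DESeq2 size factors, 7339 with library size alone (69.5% of calls higher against 58.8%), 7217 without the GC and length trend (45.6% higher), 6100 with at least 10 counts in every compared library, 7048 by DESeq2 and 9351 by adjusted p alone. It was 3415 (2317 higher, 1098 lower) at a fold change of at least 1.5. Leaving out 1 library gave 6821 to 7375 calls, 3522 to 4233 higher and 2885 to 3501 lower. The genotype difference fell from 3619 calls to 1395 (792 higher, 603 lower) at a fold change of at least 1.5 and to 1561 (1010 higher, 551 lower) in the test against a fold change of 1.2, and was 3350 to 4015 without 1 library (1477 to 2191 higher and 1372 to 2310 lower). The lower count of 2310, without WT MK-8722 replicate 2, was more than 1.5 times the main 1471. With scaling by library size alone the median log2 fold change of all genes was 0.140 against 0.058.

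Named genes kept their direction and call in 1217 of 1252 refits, and their genotype differences in 885 of 900. Mitf, near 0, changed sign to -0.02 with DESeq2 size factors and by DESeq2, to -0.01 without a filter and with the count minimum of 10, to -0.04 with the compared libraries alone, to -0.15 without the GC and length trend and to between -0.13 and -0.02 in some refits without 1 library. Prkaa1 changed to -0.03 without that trend. Afap1l2 was not called without MK-8722 replicate 3 (0.21), without torin1 replicate 3 (0.25) or without that trend (0.21).

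Deviations of same-passage libraries from their group means correlated at 0.12, 0.25, 0.13 and 0.01 for passages 16 to 19. Between torin1 and MK-8722 libraries of different passages the values ran from -0.19 to 0.07. Each torin1 library but that of passage 19 correlated best with its own passage. The main fit did not take the passages as pairs. With passage as a block, 7455 genes were called in AMPK KO and 4337 for the genotype difference. With the replicate number of the labels as a block, which does not follow passage, the counts were 7098 and 3484.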
